A study of Mus musculus with 8 samples.

Results

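The Notch pathway genes described here were the receptors Notch1, Notch2, Notch3 and Notch4, the ligands Jag1, Jag2 and Dll4, the DNA-binding factor Rbpj and the target genes Hes1 and Hey1, 10 of the 19945 genes in the count table. They were chosen by name as the canonical members of the pathway, and all 10 were measured. The data were single-cell RNA sequencing of islets isolated from wild-type mice that had received vehicle or the focal adhesion kinase (FAK) inhibitor PF562271 (FAKi), with islets of 5 mice pooled for each library and collected 10 days after the last dose. The study's mice were 6 to 12 weeks old at the start, and its methods gave FAKi as 50 mg/kg by oral gavage, 2 doses a day, dissolved in DMSO and given with Gelucire. Courses of 3 weeks were stated for its other mouse experiments. The 8 samples were 4 sequencing lanes for each treatment and the deposited tables did not separate lanes, so there was 1 library per group. A difference between the vehicle and the FAKi library therefore compared those libraries, no test between treatments was possible, and animals, isolation and treatment cannot be told apart.

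Notch receptors are cleaved after a ligand on a neighbouring cell binds them, and the released intracellular domain joins RBPJ and Mastermind-like proteins on DNA to activate genes of the HES and HEY repressor families. In the pancreas, Notch activity and HES1 hold back endocrine differentiation during development, and HES1 remains a feature of adult duct cells. In vessels, NOTCH1, NOTCH4, DLL4, JAG1 and HEY proteins act in sprouting and arterial identity, while NOTCH3 is the receptor of mural cells, the pericytes and smooth muscle around vessels.

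The members lay on 6 chromosomes (GENCODE vM21, GRCm38), with Notch1 (chromosome 2, 26457903 to 26516663, minus strand), Dll4 (chromosome 2, 119325784 to 119335962, plus strand) and Jag1 (chromosome 2, 137081456 to 137116644, minus strand) on the same one. Notch3 (32120820 to 32166852, minus strand) and Notch4 (34564268 to 34588503, plus strand) were both on chromosome 17. The 250 bases before the RefSeq start (GRCm38.p6) are shown for the receptor and ligand genes that were most restricted to 1 class of cells and for Rbpj, with capitals marking TGGGAA, the core of the RBPJ binding motif, on either strand.
Notch3, chr17:32166891-32167140, minus strand: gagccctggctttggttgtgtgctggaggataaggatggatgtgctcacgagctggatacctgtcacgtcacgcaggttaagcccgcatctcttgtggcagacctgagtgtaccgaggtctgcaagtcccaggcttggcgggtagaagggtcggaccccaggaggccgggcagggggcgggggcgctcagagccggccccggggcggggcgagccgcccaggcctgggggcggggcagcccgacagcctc
Notch4, chr17:34564045-34564294, plus strand: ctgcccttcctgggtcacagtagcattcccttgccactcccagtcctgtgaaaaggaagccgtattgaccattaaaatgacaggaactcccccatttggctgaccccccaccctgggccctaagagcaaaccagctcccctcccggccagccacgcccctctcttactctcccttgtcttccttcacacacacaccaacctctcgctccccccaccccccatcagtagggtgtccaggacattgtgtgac
Dll4, chr2:119325534-119325783, plus strand: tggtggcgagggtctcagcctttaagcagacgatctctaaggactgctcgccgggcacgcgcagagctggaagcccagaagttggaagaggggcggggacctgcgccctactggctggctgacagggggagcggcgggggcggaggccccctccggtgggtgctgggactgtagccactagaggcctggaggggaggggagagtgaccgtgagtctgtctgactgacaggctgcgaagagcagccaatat
Rbpj, chr5:53590096-53590345, plus strand: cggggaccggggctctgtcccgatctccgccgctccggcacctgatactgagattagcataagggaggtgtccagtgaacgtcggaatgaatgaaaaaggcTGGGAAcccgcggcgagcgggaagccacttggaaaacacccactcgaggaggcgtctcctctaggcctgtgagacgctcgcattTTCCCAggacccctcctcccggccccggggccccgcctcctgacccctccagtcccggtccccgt
RefSeq windows were matched for 8 of the 10 members (9 windows, Rbpj having 2), and Hes1 and Hey1 had none. TGGGAA was found in 2 of the 9 windows, both of Rbpj and overlapping each other, against 21.6% of 32851 mouse windows of this length. In the window printed for Rbpj, its matches began 149 bases before the start on the plus strand and 65 on the minus strand. CACGTG, an E-box bound by HEY proteins and searched on both strands, was in none of the 9 windows and in 6.02% of all windows. The window of Notch4 held 4 CG dinucleotides and 58.4% G+C, both lower than in the windows of Notch3 (17 and 68.8%) and Dll4 (14 and 65.6%).

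The vehicle library held 3776 annotated cells and 59514118 UMIs (unique molecular identifiers, the counted molecules), and the FAKi library 3183 cells and 57836783 UMIs. Median depth was 10101.5 and 13688 UMIs per cell, and 4 cell barcodes occurred in both libraries. Cells carried the authors' deposited labels, grouped here into 12 classes. In 7 of them every marker checked was highest in its class in both libraries, and in pericytes, β-cells, δ-cells and macrophages 1 marker each was not (Mcam, Pdx1, Hhex and Cd14). The class labelled δ held a cluster rich in Sst and a cluster in which Ppy, the pancreatic polypeptide gene, was at 278292 CPM in vehicle and 263888 in FAKi, so it is called δ/PP below. The classes most relevant here held 498 ductal, 543 endothelial, 137 pericyte and 264 fibroblast cells in vehicle and 156, 269, 64 and 63 in FAKi. T cells (168 and 28) and B cells (113 and 9) were few in FAKi, and 46.4% of the FAKi T cells, against 3.57% in vehicle, carried at least 5% of UMIs from islet hormone genes. The class labelled Acinar 1 was shallow, with median depths of 1480 and 1140 UMIs, and 86.3% and 95.3% of its cells were hormone-rich by the same measure.

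Levels below are CPM values, the UMIs of a gene per 1000000 UMIs of the summed cells of a class, given for vehicle and then FAKi, and intervals are exact 95% Poisson or binomial intervals that cover counting error only. Because the classes came from clustering the same expression values, the differences between classes are descriptions. The method counts the 3′ ends of transcripts, and levels were compared between classes and not between genes. A CPM also depends on the other RNA of its class. Ins2 alone was at 394857 and 404454 CPM in β-cells, against 16469.5 and 36696.9 CPM in ductal cells. The ratios between classes given below use all UMIs, so they include such differences in composition, which lower the values of hormone-rich and enzyme-rich classes.

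Most members were highest in endothelial cells or pericytes. The same class had the highest CPM in both libraries for 8 of the 10 members, against 54.5% of the 14092 genes with at least 100 UMIs. Endothelial cells were highest for Notch1, Notch4, Jag2, Dll4 and Hey1 (5 of 10, against 9.37% of genes), pericytes for Notch3 and Jag1 (2 of 10, against 7.98%), and ductal cells for Hes1 (1 of 10, against 14.6%). Notch2 and Rbpj were highest in ductal cells and macrophages in vehicle, but both were highest in FAKi in B cells, of which there were 9.

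**Figure D1:**
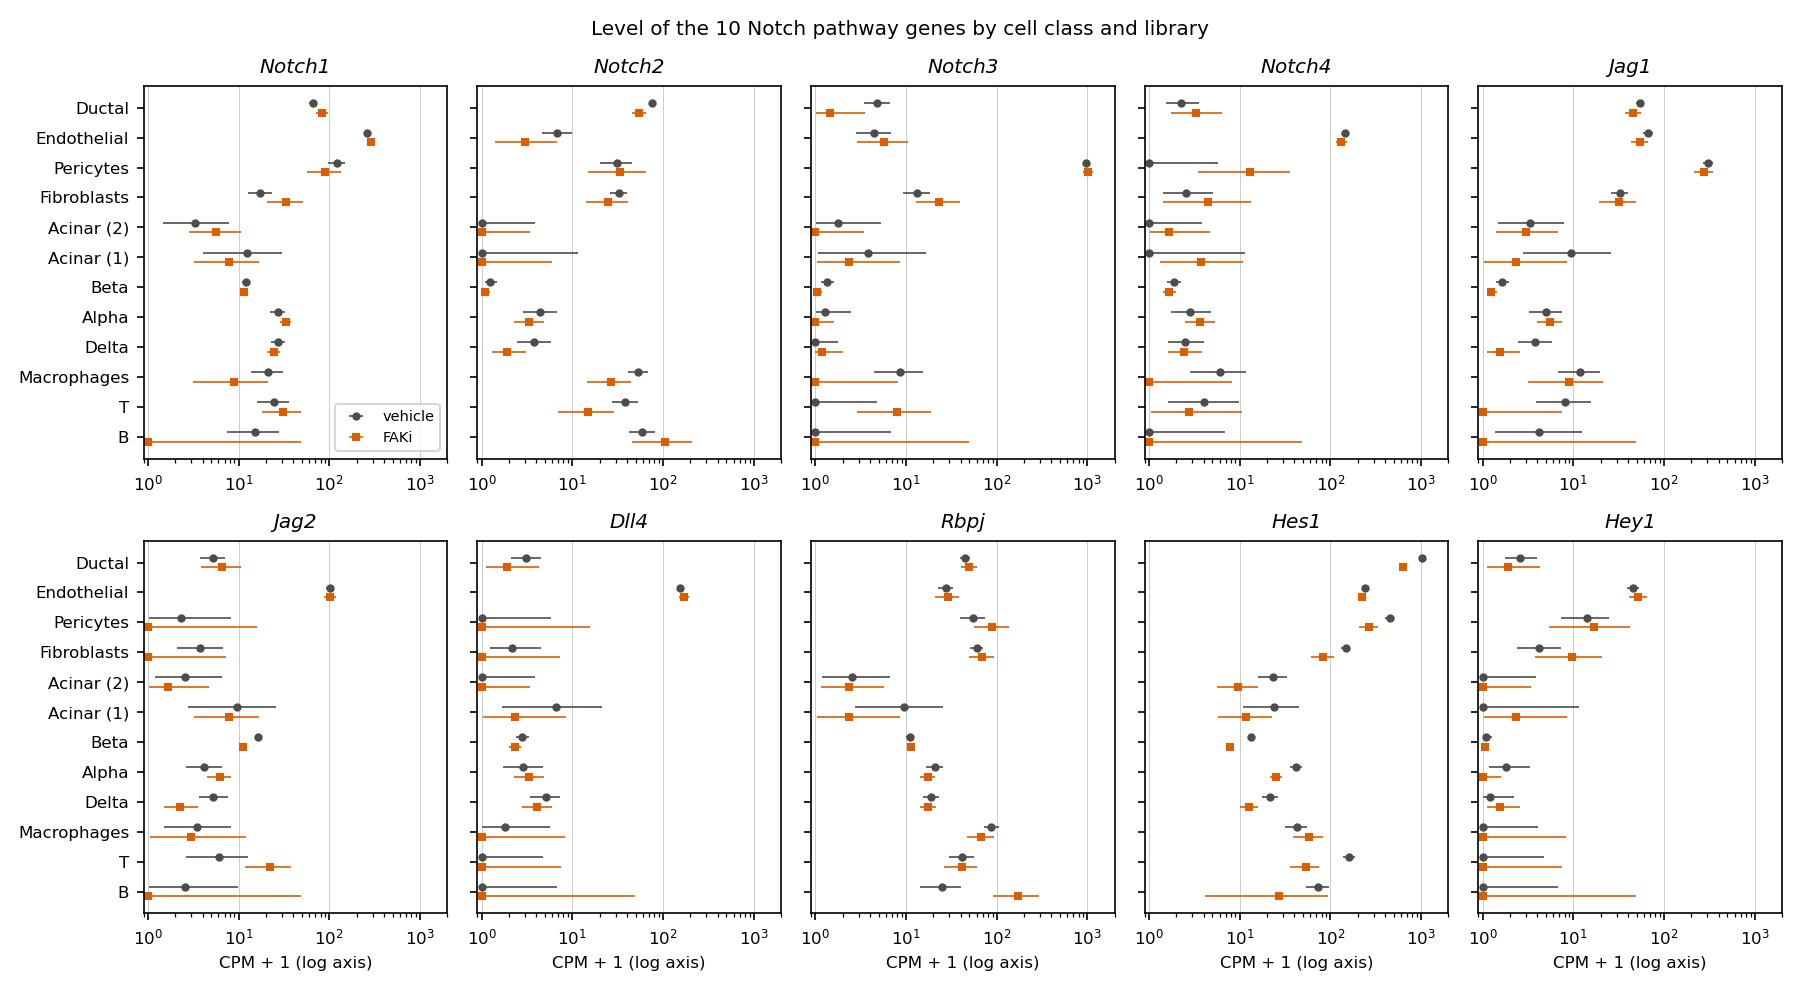
Level of each Notch pathway gene (CPM + 1, log axis) in the 12 cell classes, vehicle as grey circles and FAKi as orange squares, with exact 95% Poisson intervals. Notch1, Notch4, Jag2, Dll4 and Hey1 peaked in endothelial cells, Notch3 and Jag1 in pericytes and Hes1 in ductal cells in both libraries.

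Among the receptors, Notch3 had the sharpest distribution. In pericytes it was at 966 CPM (898 to 1038) in vehicle and 1023 CPM (901 to 1157) in FAKi, and a UMI was seen in 97.8% and 85.9% of these cells. In fibroblasts, the next class, Notch3 was at 12.3 and 22.2 CPM, so pericytes were 78.5 times (54.8 to 116) and 46.0 times (26.4 to 87.6) higher. β-cells, which should lack the gene, showed a Notch3 UMI in 0.465% and 0.150% of cells although their median depths of 30792.5 and 30427.5 UMIs were far above the 4641 and 3400.5 of pericytes. With each cell thinned to 1000 UMIs, 65.7% of vehicle and 60.3% of FAKi pericytes still had a Notch3 UMI. The pericyte intervals of the libraries overlapped, and the FAKi-to-vehicle ratio was 1.06 (0.915 to 1.22).

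Notch4, a receptor known from endothelium, was at 145 CPM (133 to 158) in endothelial cells of vehicle and 132 CPM (114 to 151) in FAKi, with a UMI in 48.1% and 41.6% of cells. Outside endothelial cells its highest level was 5.002 CPM in vehicle (macrophages, 6 UMIs) and 12.1 CPM in FAKi (pericytes, 3 UMIs). The order of the remaining classes was not resolved at this depth.

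Notch1 was more widely spread. It was highest in endothelial cells, at 258 CPM (242 to 274) in vehicle and 285 CPM (258 to 313) in FAKi, and was seen in 70.7% and 65.4% of them. Pericytes followed at 120 and 88.6 CPM and ductal cells at 65.5 and 82.4 CPM. Endothelial cells exceeded pericytes 2.15 times (1.73 to 2.69) in vehicle and 3.21 times (2.10 to 5.18) in FAKi, whereas pericytes and ductal cells were not separated in the FAKi library (ratio 1.08, 0.657 to 1.68). Endocrine cells formed a lower step: α-cells were at 26.1 and 32.1 CPM, δ/PP-cells at 26.1 and 23.3 CPM and β-cells at 11.1 and 10.3 CPM. Both α-cells (2.35 times, 1.86 to 2.94, and 3.10 times, 2.60 to 3.70) and δ/PP-cells (2.35 times, 1.90 to 2.89, and 2.25 times, 1.83 to 2.75) were above β-cells in both libraries. In the acinar class labelled 2, the better-sampled of the 2 acinar classes, Notch1 was at 2.33 CPM (3 UMIs) and 4.64 CPM (7 UMIs).

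Notch2 had the reverse pattern in vessels. Ductal cells were at 75.2 CPM (68.6 to 82.3) in vehicle and 53.9 CPM (44.5 to 64.6) in FAKi, 12.9 times (8.44 to 20.8) and 27.0 times (9.01 to 133) the endothelial levels of 5.82 CPM (22 UMIs) and 1.996 CPM (3 UMIs). It was also present in B cells (58.4 and 104 CPM), macrophages (52.5 and 25.6 CPM), T cells (37.5 and 14.0 CPM), fibroblasts (31.8 and 24.0 CPM) and pericytes (29.99 and 32.2 CPM). Ductal cells and B cells were not separated in either library. In β-cells only 8 UMIs in vehicle and 3 in FAKi were counted, 0.240 and 0.0782 CPM. Neither acinar class had any Notch2 UMI, which in the class labelled 2 allows a level of up to 2.33 CPM in vehicle and 1.99 CPM in FAKi, and in Acinar 1 up to 8.50 and 4.08 CPM.

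In both libraries ductal cells were above 50 CPM for Notch1 and Notch2, endothelial cells for Notch1 and Notch4, and pericytes for Notch1 and Notch3. In the same ductal cell, UMIs of Notch1 and Notch2 were both seen in 133 of 498 vehicle cells (26.7%) and 48 of 156 FAKi cells (30.8%). The median depth of those cells was 17015 and 21163 UMIs, against 7228 and 7617 in cells with neither. After thinning to 1000 UMIs both remained in 4 of 495 vehicle cells and in none of 155 FAKi cells, so few such cells were left at equal depth.

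Of the ligands, Dll4 and Jag2 were endothelial and Jag1 mural. Dll4 stood at 152 CPM (140 to 165) in endothelial cells of vehicle and 171 CPM (151 to 193) in FAKi, with a UMI in 42.9% and 46.1% of cells. No Dll4 UMI was counted in pericytes, in the acinar class labelled 2, in T cells or in B cells of either library. Counting error allows up to 3.91 CPM (vehicle) and 12.1 CPM (FAKi) in pericytes. Endocrine cells had low levels, 4.07 and 3.07 CPM in δ/PP-cells, 1.85 and 2.33 CPM in α-cells and 1.80 and 1.33 CPM in β-cells.

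Jag1 was at 305 CPM (267 to 347) in vehicle pericytes and 274 CPM (213 to 347) in FAKi pericytes, and a UMI was found in 80.3% and 65.6% of these cells. Endothelial (65.8 and 53.2 CPM) and ductal cells (53.6 and 44.7 CPM) came next, and fibroblasts were at 31.4 and 30.8 CPM. Pericytes exceeded endothelial cells 4.63 times (3.86 to 5.56) in vehicle and 5.15 times (3.67 to 7.199) in FAKi. All other classes were at or below 10.8 CPM.

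Jag2 in endothelial cells was at 102 CPM (91.9 to 112) and 101 CPM (85.7 to 119), a FAKi-to-vehicle ratio of 0.993. Unlike Dll4, it had a second well-counted source: β-cells were at 15.3 CPM (14.0 to 16.7; 509 UMIs) in vehicle and 10.1 CPM (9.10 to 11.1; 387 UMIs) in FAKi, with a UMI in 34.5% and 22.7% of β-cells. The β-cell level was 4.83 times (2.74 to 9.41) and 1.95 times (1.35 to 2.92) that of α-cells, and 3.57 times (2.29 to 5.89) and 7.98 times (3.84 to 19.98) that of δ/PP-cells. Jag2 was spread over the 3 β-cell clusters, at 15.7, 14.3 and 14.9 CPM in vehicle and 10.6, 9.76 and 6.97 CPM in FAKi.

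Endocrine droplets can also hold RNA from endothelial cells, whose part in these levels was not tested. The endocrine levels of the 5 members highest in endothelial cells were expressed as a percent of their endothelial levels beside 9 endothelial markers. In β-cells the markers lay between 0.0227% and 0.0928% of their endothelial level in vehicle and between 0.0101% and 0.0739% in FAKi. Jag2 in β-cells was at 15.02% and 9.97% of its endothelial level, Notch1 at 4.32% and 3.63%, Dll4 at 1.18% and 0.777% and Notch4 at 0.601% and 0.514%, each above the highest of the 9 markers. Hey1 was at 0.203% and 0.103%, from 3 and 2 UMIs. In α-cells the markers were at 0% to 0.0377% in vehicle and 0% to 0.474% in FAKi, and Notch1 was at 10.1% and 11.3%, whereas Hey1 in FAKi was at 0%, within the marker range. In δ/PP-cells of the FAKi library the markers reached 1.02%, with Notch1 at 8.18% and Hey1 at 1.07%.

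**Figure D2:**
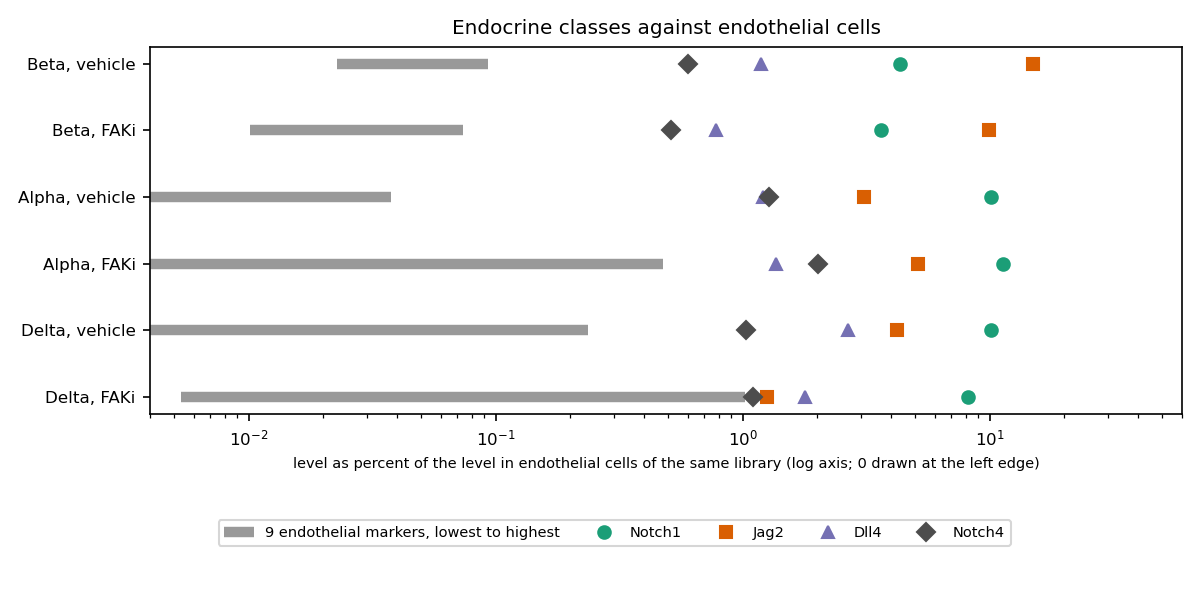
Level of Notch1, Jag2, Dll4 and Notch4 in β-, α- and δ/PP-cells as a percent of the level in endothelial cells of the same library (log axis), beside the range of 9 endothelial markers (grey bars, 0 drawn at the left edge). The symbols lie to the right of the grey bars, closest in δ/PP-cells of FAKi, where the markers reached 1.02%.

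Within the δ/PP class, the cluster rich in Sst held most of the Notch1 and Dll4 signal. Notch1 was at 41.6 CPM in the Sst-rich cluster and 11.004 CPM in the Ppy-rich cluster of vehicle (3.78 times, 2.43 to 6.08), and at 31.2 and 16.3 CPM in FAKi (1.91 times, 1.32 to 2.79). Dll4 was at 6.94 CPM (16 UMIs) against 1.27 CPM (3 UMIs) in vehicle and 6.16 CPM (16 UMIs) against 0.340 CPM (1 UMI) in FAKi. The direction was the same in both libraries, on few UMIs for Dll4.

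The endothelial class consisted of the deposited clusters 3 (371 and 229 cells) and 11 (172 and 40 cells), which differed in their ligands. Cluster 11 carried Vwf, Ackr1 and Lyve1, known from larger, venous and lymphatic vessels, and the arterial genes Gja5 and Bmx, whereas cluster 3 carried most of the Esm1 and Kdr, genes of capillary and sprouting endothelium. Jag1 was at 21.6 CPM in cluster 3 and 144 CPM in cluster 11 of vehicle, 6.65 times higher (4.88 to 9.22) in cluster 11, and at 26.6 and 180 CPM in FAKi, 6.77 times higher (4.25 to 10.9). Dll4 went the other way in vehicle, with 206 CPM in cluster 3 and 58.3 CPM in cluster 11 (ratio 0.283, 0.221 to 0.359), but in FAKi the levels were 178 and 138 CPM and the interval of the ratio included 1 (0.774, 0.529 to 1.10). Notch4 was likewise at 192 and 62.7 CPM in vehicle (0.327, 0.257 to 0.412) and at 139 and 99.5 CPM in FAKi (0.719, 0.456 to 1.09). Notch1 and Hes1 did not separate the clusters in either library.

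To see where Jag1 lay, endothelial cells with at least 1 UMI of Gja5 or Bmx (47 in vehicle and 21 in FAKi) were set against the others, a split chosen after the values had been seen. Jag1 was at 290 CPM in the Gja5 or Bmx cells and 32.2 CPM in the others in vehicle, 9.01 times higher (6.96 to 11.7), and at 211 and 34.3 CPM in FAKi, 6.14 times higher (3.82 to 9.78). Jag2 was 2.38 times (1.87 to 2.99) and 2.87 times (1.94 to 4.16) higher, and Hey1 2.37 times (1.64 to 3.37) and 3.17 times (1.82 to 5.33) higher. Dll4 was not higher in these cells in vehicle (0.835, 0.633 to 1.08) and was higher in FAKi (1.81, 1.29 to 2.50). The Gja5 or Bmx cells were deeper, with medians of 8515 and 7091 UMIs against 5477 and 4732.5. Thinned to 1000 UMIs, 18 vehicle cells kept a UMI of either gene, and Jag1 was seen in 38.9% of them and 4.69% of the others. Only 3 such cells remained in FAKi. Endothelial cells with Ackr1 or Vwf but neither arterial gene (127 and 17) had Dll4 at 80.9 and 15.3 CPM, Notch4 at 55.6 and 23.0 CPM and Jag1 at 36.4 and 30.6 CPM.

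**Figure D3:**
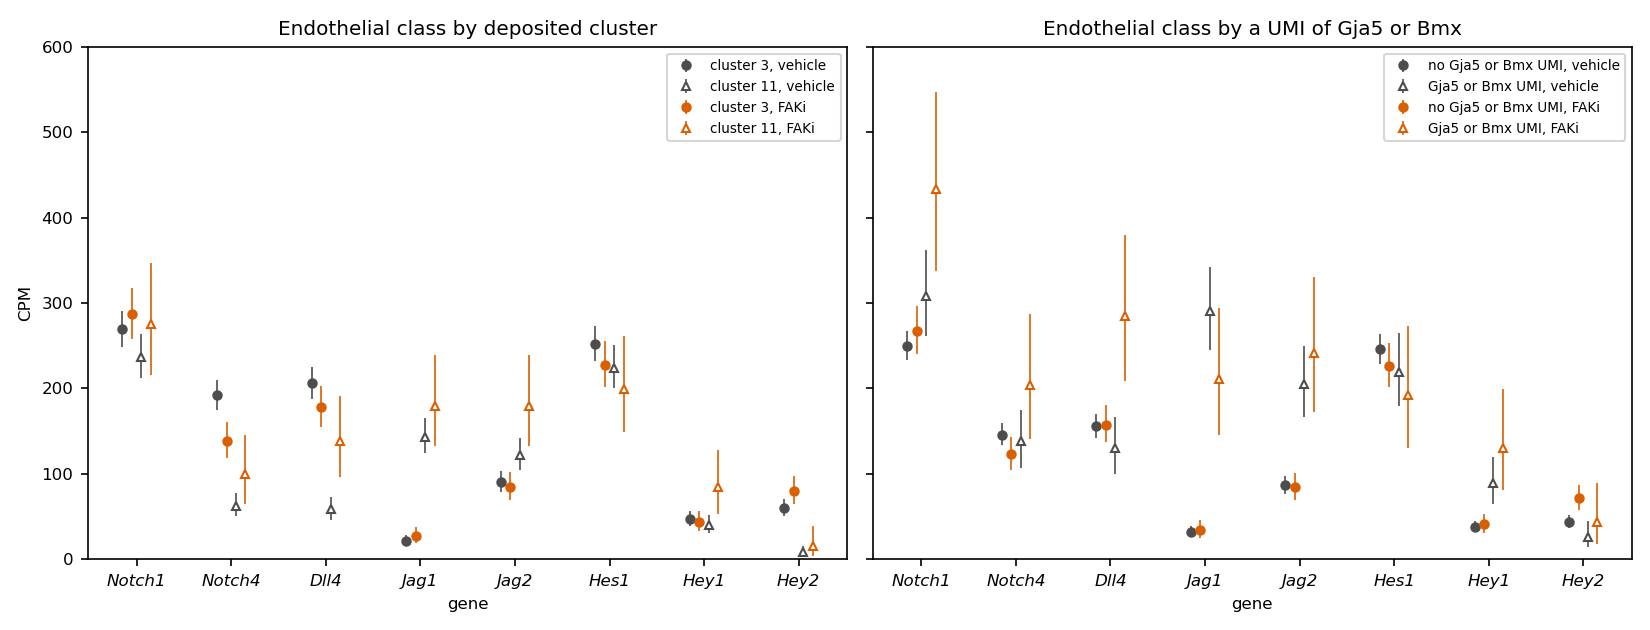
Levels (CPM, with exact 95% Poisson intervals) of 7 Notch pathway genes and Hey2 in the endothelial class, split by deposited cluster (left) and by a UMI of the arterial genes Gja5 or Bmx (right), vehicle in grey and FAKi in orange. Jag1 stood higher in cluster 11 and in the Gja5 or Bmx cells in both libraries, while Dll4 and Notch4 were higher in cluster 3 in vehicle.

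Receptor and ligand were often counted in the same cell. Dll4 and Notch1 were both seen in 194 of 543 endothelial cells (35.7%) in vehicle and 99 of 269 (36.8%) in FAKi, and after thinning in 21 of 530 and 8 of 253. Notch3 and Jag1 were both seen in 108 of 137 pericytes (78.8%) in vehicle and 38 of 64 (59.4%) in FAKi, and after thinning in 26 of 137 and 13 of 63. The lower FAKi share in pericytes at full depth went with a lower median depth.

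Rbpj, the DNA-binding factor shared by all 4 receptors, was spread over many classes. In vehicle it was at 86.7 CPM in macrophages, 59.2 in fibroblasts, 53.5 in pericytes, 43.9 in ductal cells, 40.6 in T cells and 26.4 in endothelial cells. In FAKi the same classes were at 66.9, 68.4, 88.6, 48.8, 40.1 and 27.9 CPM. Taken in order of their mean level, no neighbouring pair of these 6 classes was separated in both libraries. Endocrine cells were lower, with α-cells at 19.8 and 16.5 CPM, δ/PP-cells at 18.0 and 16.4 CPM and β-cells at 10.0 and 10.3 CPM. The FAKi B cells stood at 169 CPM on 13 UMIs from 9 cells.

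The acinar class labelled 2 had 2 Rbpj UMIs in each library (1.55 and 1.33 CPM). Acinar 1 had 3 UMIs in vehicle (8.50 CPM, 1.75 to 24.8) and 1 in FAKi (1.36 CPM), and in vehicle was not separated from β-cells. The paralog Rbpjl, the partner of PTF1A in the acinar transcription complex and named here after its values had been seen, was at 35.7 and 53.7 CPM in the class labelled 2 and 45.3 and 28.6 CPM in Acinar 1, and at or below 5.13 CPM in all other classes. Hes1 was the only member with 10 or more UMIs there in each library of the class labelled 2.

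Hes1, a transcriptional repressor and the classical Notch target, was a ductal gene in this preparation. Ductal cells were at 1012 CPM (987 to 1037) in vehicle and 639 CPM (606 to 674) in FAKi, with a UMI in 90.2% and 86.5% of cells. Pericytes followed at 449 CPM (402 to 498) and 266 CPM (206 to 338), and ductal cells were 2.26 times (2.02 to 2.52) and 2.41 times (1.88 to 3.13) higher. Endothelial cells were at 242 and 222 CPM and fibroblasts at 146 and 82.1 CPM. Among endocrine cells, α-cells were at 40.9 and 24.3 CPM, 3.27 times (2.70 to 3.94) and 3.54 times (2.88 to 4.36) above β-cells at 12.5 and 6.85 CPM, with δ/PP-cells at 20.8 and 11.7 CPM. As a percent of the ductal level, Hes1 in vehicle was at 1.24% in β-cells, 4.04% in α-cells and 2.05% in δ/PP-cells, within the range of 8 ductal markers there, whose medians were 2.21%, 3.41% and 5.85%. In FAKi it was at 1.07%, 3.80% and 1.83%, again within their range. That range was wide, with highest markers at 24.4%, 28.6% and 25.6% in vehicle and 33.2%, 35.3% and 38.4% in FAKi. The markers Krt19 and Sox9 were below Hes1 in β-cells (0.504% and 0.0762% in vehicle, 0.668% and 0.0253% in FAKi). They were also below it in α-cells (0.0527% and 0.526%, then 0.157% and 0.0924%). In δ/PP-cells Krt19 was below Hes1 (0.185% and 0.153%), but Sox9 was above it (4.97% and 2.26%). The part of ductal RNA in the endocrine Hes1 levels was not tested. The acinar class labelled 2 was at 22.5 and 8.62 CPM, at least an order of magnitude below ductal cells in both libraries (45.0 times, 31.3 to 67.2, and 74.2 times, 43.2 to 140). These were 2.22% and 1.35% of the ductal level, where the ductal markers reached 2.95% and 3.04%.

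Hey1, a target in vessels, was highest in the vascular classes. It was at 44.4 CPM (38.0 to 51.7) in endothelial cells of vehicle and 50.6 CPM (39.8 to 63.3) in FAKi, and at 13.0 CPM (10 UMIs) and 16.1 CPM (4 UMIs) in pericytes. Endothelial cells were 3.41 times (1.81 to 7.23) and 3.14 times (1.18 to 11.8) higher than pericytes. All other classes were at or below 8.55 CPM, and β-cells had 3 UMIs in vehicle and 2 in FAKi.

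For the vehicle and FAKi libraries, the 52 pairs of member and class with at least 30 UMIs in total were counted as higher or lower in FAKi at 1.5-fold. Higher in FAKi were 5 of 52 pairs, against 7.09% of the 87432 pairs over all genes, and lower were 13 of 52, against 12.1%. At full depth no receptor or ligand passed 1.5-fold in the class where it was highest in both libraries. The ratios there were 1.11 (0.985 to 1.24) for Notch1, 0.909 for Notch4, 1.12 for Dll4 and 0.993 for Jag2 in endothelial cells, 1.06 for Notch3 and 0.898 for Jag1 in pericytes, and 1.14 for Hey1 in endothelial cells. Notch4 in endothelial cells was at 0.645, past 1.5-fold, with the cells thinned to 1000 UMIs. Within the endothelial class the clusters went opposite ways: from vehicle to FAKi Dll4 was at 206 and 178 CPM in cluster 3 and at 58.3 and 138 CPM in cluster 11, and Notch4 at 192 and 139 CPM and at 62.7 and 99.5 CPM. Cluster 11 was 172 of 543 endothelial cells in vehicle and 40 of 269 in FAKi. Intervals that leave out 1 without passing 1.5-fold were those of ductal Notch1 (1.26, 1.05 to 1.504) and ductal Notch2 (0.716, 0.580 to 0.878), which went in opposite directions. Ductal Notch2 passed 1.5-fold in cells under 5% mitochondrial UMIs (0.656) and without the cell with most Notch2 UMIs in each library (0.660).

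The 5 higher pairs were Notch1 in fibroblasts (16.3 CPM in vehicle and 32.5 in FAKi, ratio 1.997, 1.09 to 3.52), Notch3 in fibroblasts (1.81, 0.868 to 3.55), Rbpj in pericytes (1.66, 0.940 to 2.85), Jag2 in α-cells (1.63) and Notch2 in B cells (1.78). Only for Notch1 in fibroblasts did the interval leave out 1. Notch3 in fibroblasts was at 1.40 as a mean over cells and at 1.29 without the cell with most Notch3 UMIs, neither past 1.5-fold, and fell to 28 UMIs, under the minimum, without hormone-rich cells. Rbpj in pericytes was at 1.32 as a mean over cells and at 0.988 with the cells thinned to 1000 UMIs. Notch2 in B cells was at 1.02 as a mean over cells.

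Of the 13 lower pairs, 9 were Hes1 in different classes. The others were Jag2 in β-cells (0.659, 0.576 to 0.754), Jag1 in β-cells (0.372, 0.150 to 0.846, from 21 and 9 UMIs), Notch2 in macrophages (0.487, 0.246 to 0.894) and Notch2 in T cells (0.372, 0.150 to 0.812). Jag1 in β-cells was 2.17 as a mean over cells, and Notch2 in T cells was 1.90 without hormone-rich cells, so neither direction held under every alternative. Jag2 in β-cells was between 0.426 and 0.692 under the 10 alternatives tried for it, and lower in each of the 3 β-cell clusters. It no longer passed 1.5-fold without the 20 most abundant genes (0.681), without hormone and acinar genes (0.680) or in cells under 5% mitochondrial UMIs (0.692). Thinned to 1000 UMIs, Jag2 was seen in 1.60% of vehicle and 0.682% of FAKi β-cells.

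**Figure D4:**
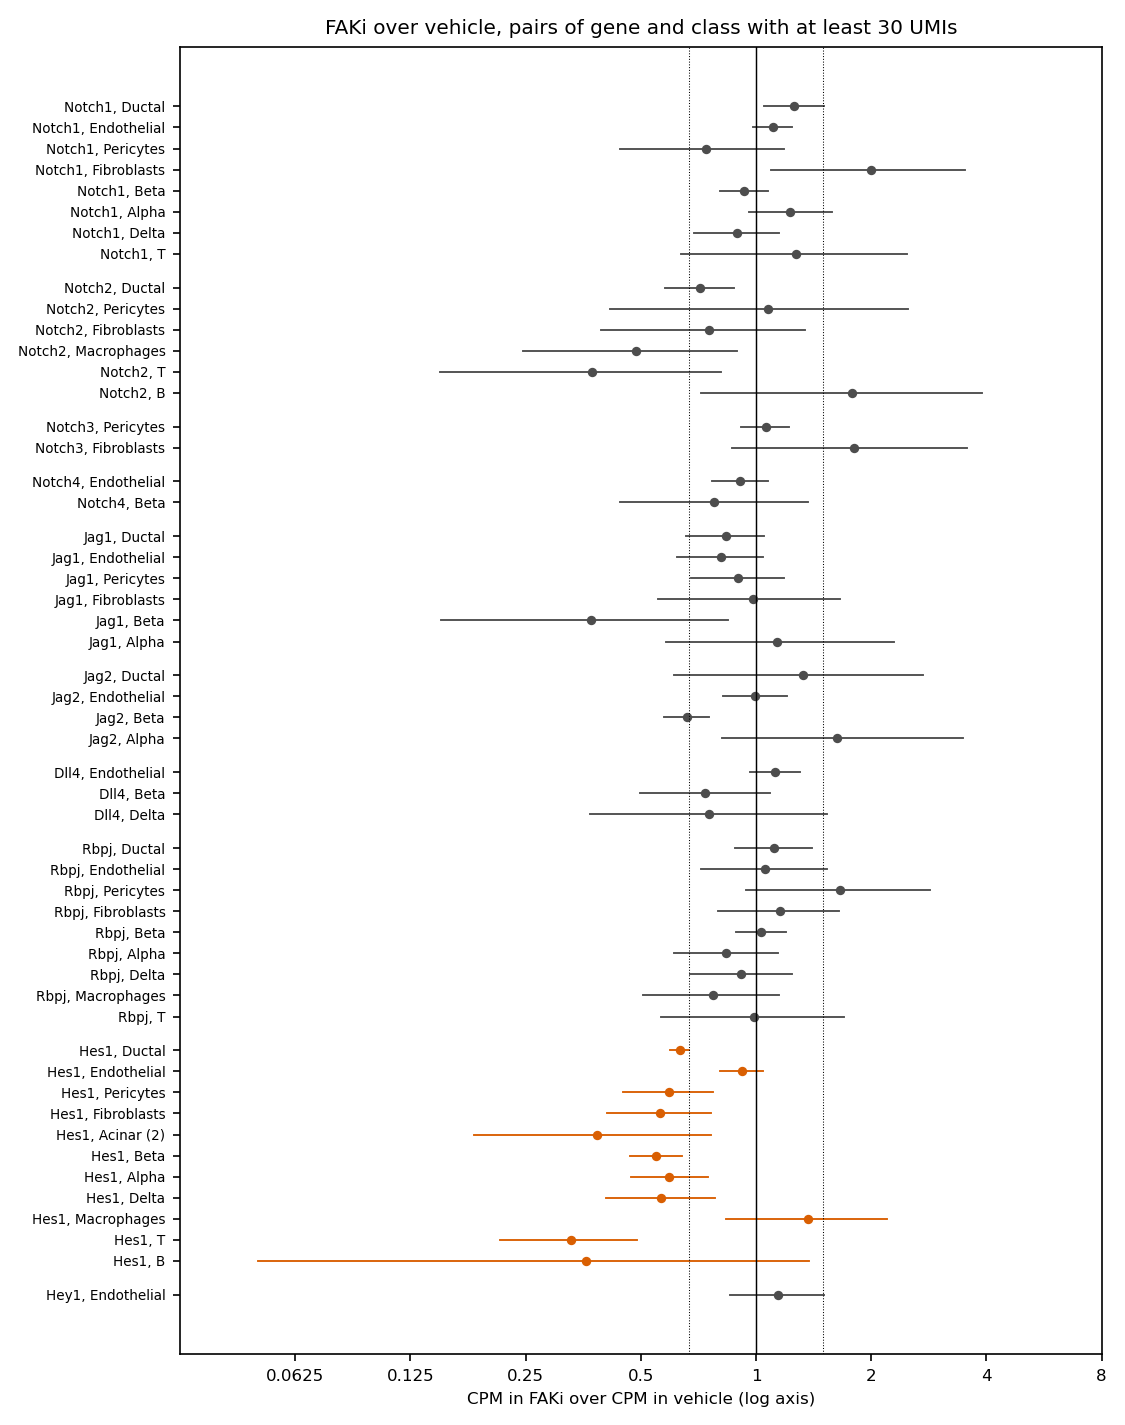
FAKi over vehicle ratio of CPM (log axis) with exact 95% intervals for the 52 pairs of Notch pathway gene and cell class with at least 30 UMIs, dotted lines at 1.5-fold in either direction, Hes1 in orange. Of the 13 pairs lower by at least 1.5-fold, 9 were Hes1.

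Hes1 was lower by at least 1.5-fold in 9 of the 11 classes in which it was counted. The ratios were 0.632 (0.596 to 0.670) in ductal cells, 0.593 (0.448 to 0.773) in pericytes and 0.562 (0.407 to 0.761) in fibroblasts. In endocrine cells they were 0.548 (0.468 to 0.641) in β-cells, 0.594 (0.471 to 0.750) in α-cells and 0.565 (0.406 to 0.781) in δ/PP-cells. The share of genes lower by 1.5-fold over all genes was 7.24% in ductal cells, 12.9% in pericytes, 16.2% in fibroblasts, 5.51% in β-cells, 3.95% in α-cells and 5.97% in δ/PP-cells. In the acinar class labelled 2 the ratio was 0.383 (0.183 to 0.761), from 29 and 13 UMIs, where 7.06% of all genes were lower. Endothelial cells (0.918, 0.807 to 1.04) and macrophages (1.37, 0.835 to 2.21) had intervals that included 1. B cells were at 0.359 (0.0422 to 1.37), on 2 UMIs in FAKi, where 34.6% of all genes were lower. In the endocrine classes, the acinar class labelled 2 and T cells, Hes1 lay within the range of the ductal markers in both libraries. In β- and α-cells it was above the markers Krt19 and Sox9 in both libraries. In pericytes and fibroblasts Hes1 was above the highest of the ductal markers, at 44.3% and 14.4% of the ductal level in vehicle against 2.13% and 5.83%. The part of ductal RNA in the Hes1 ratios was not tested.

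Such breadth was uncommon: of 1435 genes counted in at least 11 classes, 6 (0.418%) were lower in at least 9, namely Hbb-bs, Nfkbia, Gm10320, Gm10076, Pim3 and Hes1, which is a description because the count of 9 was set by Hes1 itself. The ductal ratio ranged from 0.621 to 0.777 over 10 alternatives and no longer passed 1.5-fold without hormone-rich cells (0.681), as a mean over cells (0.705) or after thinning to 1000 UMIs (0.777). The pericyte ratio ranged from 0.562 to 0.693 and did not pass after thinning. The β-cell ratio ranged from 0.537 to 0.597 and the α-cell ratio from 0.575 to 0.654, but after thinning these classes held 20 and 25 Hes1 UMIs, under the minimum of 30. The count of 9 classes was 7 without hormone-rich cells, 7 as a mean over cells and 1, fibroblasts, after thinning. At 2-fold it was 3, namely the acinar class labelled 2, T cells and B cells. Thinned to 1000 UMIs, Hes1 was seen in 53.5% of ductal cells in vehicle and 41.9% in FAKi.

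Of the genes named above, Nfkbia and Pim3, like Hes1, have short-lived transcripts, which is not said of Hbb-bs, Gm10320 or Gm10076. Therefore 10 immediate early genes, whose RNA appears within minutes of tissue handling, were set beside Hes1. They were Fos, Fosb, Jun, Junb, Egr1, Ier2, Atf3, Dusp1, Zfp36 and Btg2, a list chosen after the values had been seen. Their summed level in FAKi over vehicle was 0.896 in ductal cells (7 of 10 lower), 0.704 in pericytes (10 of 10), 0.908 in fibroblasts (7 of 10) and 0.715 in β-cells (10 of 10). In α-cells the sum was 1.30 (none of the 10 lower) and in δ/PP-cells 1.17 (4 of 10), while Hes1 was at 0.594 and 0.565 there. In the acinar class labelled 2 the sum was 1.28 (3 of 10) and in B cells 1.93 (1 of 10), with Hes1 at 0.383 and 0.359. In T cells the sum was 0.583 (7 of 10) and Hes1 0.329. In endothelial cells the sum was 0.763 (9 of 10 lower) and Hes1 0.918. The part of tissue handling in the Hes1 ratios was not tested.

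In T cells Hes1 was at 159 CPM in vehicle and 52.3 CPM in FAKi (0.329, 0.215 to 0.488), where 43.4% of all genes were lower by 1.5-fold. The 157 vehicle UMIs came from 11.9% of the cells, and the mean over cells gave the opposite direction, 1.13. Ductal markers were also present in the vehicle T cells: the 8 of them stood between 5.59% and 23.6% of their ductal level (median 7.72%), with Hes1 at 15.7%. In the FAKi T cells the markers' median was 1.34% and Hes1 was at 8.18%, and in vehicle B cells these were 5.29% and 7.18%. The part of ductal RNA in these levels was not tested.

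**Figure D5:**
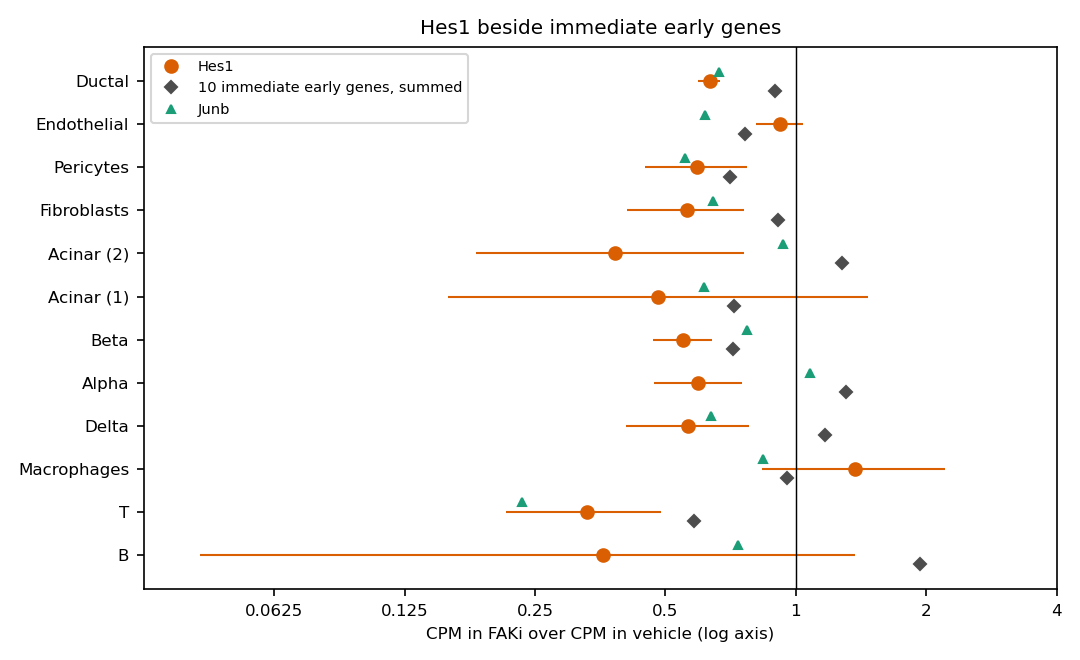
FAKi over vehicle ratio (log axis) by cell class for Hes1 (orange, exact 95% interval), for the summed level of 10 immediate early genes (grey diamonds) and for Junb (green triangles). In α- and δ/PP-cells Hes1 was at 0.594 and 0.565 while the summed immediate early genes were at 1.30 and 1.17.

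A list of 58 other Notch pathway genes, of which 56 were in the table, covered further ligands, HES and HEY proteins, Mastermind-like coactivators, Fringe glycosyltransferases, proteases and regulators. Over 357 counted pairs, 13 were higher in FAKi, against 7.09% over all genes, and 47 lower, against 12.1%. The lower count is close to that background. By class, lower were 1 of 44 in ductal cells (7.24% of all genes), 6 of 43 in endothelial cells (10.7%), 3 of 26 in pericytes (12.9%), 7 of 38 in fibroblasts (16.2%) and 15 of 26 in T cells (43.4%).

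The endothelial members came with Mfng (120 and 121 CPM), a Fringe enzyme that modifies NOTCH receptors, Nrarp (96.8 and 90.5 CPM), a feedback inhibitor induced by Notch, and Hey2 (41.2 and 68.5 CPM). Adam10 (160 and 144 CPM), which makes the first cleavage of the receptor, Numb (115 and 121 CPM), an inhibitor of it, and the secreted Egfl7 (1666 and 1548 CPM) were likewise endothelial. Each of these was at least 3 times higher in endothelial cells than in the remaining cells pooled. Against single classes, endothelial Adam10 was 2.45 times pericytes in vehicle and 2.21 times B cells (0.931 to 6.86) in FAKi, and Nrarp and Hey2 were higher in pericytes. Dll1, a ligand named after its values were seen, was at 37.8 and 25.9 CPM in endothelial cells. In pericytes Heyl was at 263 and 254 CPM in pericytes, 6.502 times (5.10 to 8.33) and 3.80 times (2.51 to 5.82) the level of fibroblasts, and Hey2 at 133 and 161 CPM, 3.22 times (2.49 to 4.16) and 2.35 times (1.59 to 3.42) that of endothelial cells. Nrarp in pericytes was at 143 and 96.7 CPM, 1.48 times (1.19 to 1.84) that of endothelial cells in vehicle and 1.07 times (0.662 to 1.66), not separated from it, in FAKi. Heyl, Hey2 and Nrarp were named in pericytes after their values had been seen.

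Hey2 was the HEY gene with a difference between libraries in endothelial cells, at a ratio of 1.66 (1.28 to 2.14), beside 1.14 for Hey1. It lay mainly in cluster 3, at 59.8 CPM in vehicle and 79.7 CPM in FAKi, and was at 8.75 and 15.3 CPM in cluster 11, which made up fewer of the FAKi endothelial cells. Lfng, another Fringe, was at 28.6 and 12.6 CPM in endothelial cells (0.443, 0.257 to 0.725). Cir1, a corepressor that binds RBPJ, was at 0.577 (0.420 to 0.781), Maml2 at 0.647 (0.438 to 0.933) and Rfng at 0.513 (0.242 to 0.992). In ductal cells Maml2 was lower (0.609, 0.393 to 0.914) and Dtx1, a ubiquitin ligase of the pathway, higher (2.07, 1.15 to 3.65, from 32 and 23 UMIs). In fibroblasts 4 of 38 were higher, against 9.25% of all genes. Heyl was at 40.5 and 66.7 CPM there (1.65, 1.11 to 2.40), whereas Hes1 was at 0.562. The others higher in fibroblasts were Hes6 (2.10), Spen (1.60) and Tle2 (2.77), and of the 7 lower ones only Maml1 (0.265) and Rfng (0.365) had intervals that left out 1. Adam17 in pericytes was at 0.309 (0.0603 to 0.993), from 30 and 3 UMIs.

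The genes whose log2(CPM + 1) pattern over the 24 class and library points was most like each member were found among 14092 genes. For Notch3 these were Cox4i2 (Pearson's r 0.96), Higd1b and Gm13861, for Dll4 Ccdc85a (0.94), Arhgef15 and Unc45b, for Notch4 Crispld1 (0.90), Cyyr1 and Rasip1, and for Hey1 Adam12 (0.96), Lims2 and Hoxb7. Notch1 was nearest to Klf7 (0.94), Map4k3 and Dab2ip, Notch2 to Jpt1 (0.94), Nfkbie and Bcl6, and Rbpj to Picalm (0.95), Cybc1 and Chmp4b. Jag1 was nearest to Tns1 (0.94), Mfge8 and Rarb, Jag2 to Akr1c14 (0.91), Wscd1 and Efr3b, and Hes1 to Acaa2 (0.94), Gpx4 and Ephx1. The 24 points share 2 libraries and their depth, and r is a description.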

How the data were processed

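Islet cells were captured with the 10x Chromium 3′ v3.1 chemistry. Per the labels and the study's methods, the authors used Cell Ranger and Seurat 3.1 with the mm10 build, kept cells under a mitochondrial limit, integrated the libraries, clustered them and named the clusters. The deposited count matrix holds whole UMI counts per gene and cell, not normalized, and the deposited cell table holds each cell's library, cluster and type and the mitochondrial percent computed by the authors. From these, UMIs were summed per class and library and divided by all UMIs of that class (CPM). Intervals were exact (Poisson, Clopper-Pearson, and conditional binomial for ratios), at 95%, and cover counting error only; their coverage was tested on simulated data. A count of 0 allows 3 UMIs. With 1 library per condition no test was made between them, and a pair was called at 1.5-fold from at least 30 UMIs. Shares of cells were repeated after thinning each cell to 1000 UMIs, leaving out shallower cells. Doublets were called with scrublet within each library (68 in vehicle, 1.80%, and 57 in FAKi, 1.79%) and were kept, except in an alternative. Whether the authors removed doublets is not given in the sources used here.

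The members and lists were chosen with earlier results of these data known. Named were the 10 members, other pathway genes with at least 100 UMIs and 3 times the level of all other cells, those past 1.5-fold with an interval leaving out 1 in ductal, endothelial or stromal classes, the 3 genes nearest in pattern, and markers. Genes outside this rule are said to have been chosen after their values were seen. Gene positions are from GENCODE vM21 and promoters from RefSeq. Sums and intervals were computed with scipy 1.17.1 and pandas 2.3.3 in Python 3.11.15, scrublet was run through scanpy 1.11.5, and plots were drawn with matplotlib 3.10.9.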

Additional observations from a re-analysis of the deposited data

How the results depend on the processing

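The count of members with the same highest class in both libraries was 8 of 10 under all 10 alternatives tried. The pairs higher in FAKi (5 of 52) numbered 1 in cells under 5% mitochondrial UMIs, 0 after thinning to 1000 UMIs, 10 with at least 10 UMIs, 0 with at least 100 UMIs, 12 with at least 1 UMI in each library, 0 at 2-fold and 1 where the interval had also to leave out 1. Those lower (13 of 52) numbered 2 after thinning, 24 with at least 10 UMIs, 8 with at least 100 UMIs, 32 with at least 1 UMI in each library and 6 at 2-fold. Thinning and stricter minimums leave fewer pairs to count. The direction turned for Hes1 in T cells (1.13 as a mean over cells, against 0.329), Jag1 in β-cells (2.17 as a mean over cells, against 0.372), Notch2 in T cells (1.90 without hormone-rich cells, against 0.372) and Rbpj in pericytes (0.988 after thinning, against 1.66), and the cause was not tested. A ratio counted as reversed where it had passed 1.5-fold and then crossed 1. Of 254 values recomputed, 230 lay within the interval of the reported ratio, 20 moved and these 4 reversed. Ratios within 1.5-fold also crossed 1 for endothelial Dll4 (1.12, down to 0.797 after thinning), Hey1 (1.14, 0.927 without cluster 11) and Jag2 (0.993, up to 1.05), and for pericyte Notch3 (1.06, down to 0.873) and Jag1 (0.898, 1.14 after thinning). Of 196 levels, 144 stayed and 52 moved. All 24 shares of cells with both genes of a pair were lower after thinning, by construction. With a pseudocount of 10 CPM, 15 of the 30 genes nearest in pattern were shared. Leaving out the endothelial cluster 11 was an alternative chosen after seeing the data, under which Dll4 and Notch4 in endothelial cells were at 0.865 and 0.723. No paired analysis was possible because each group had 1 library, whose 4 lanes are repeats and not replicates, and no test was made. For the same reason no replicate could be left out. Depth limits the acinar, T and B cells, where most members had under 10 UMIs.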

Other observations

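Dlk1, a transmembrane protein related to the Delta ligands that lacks their receptor-binding domain and is known as an islet gene, was part of the wider pathway list and was singled out after its values had been seen. In β-cells it was at 0.150 CPM in vehicle (5 UMIs in 5 of 1076 cells) and 3.20 CPM in FAKi (123 UMIs in 41 of 1336 cells, at most 18 in 1 cell), a ratio of 21.3 (8.90 to 66.9). In α-cells 1 UMI was counted in vehicle and 18 in FAKi. In δ/PP-cells, where the gene was highest among endocrine classes, the levels were 14.8 and 13.7 CPM. The share of β-cells with a Dlk1 UMI was 0.465% and 3.07%, at median depths of 30792.5 and 30427.5 UMIs.

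The Mastermind-like gene Maml3, named after its values were seen, had well-counted levels in endocrine cells, at 56.7 and 41.3 CPM in β-cells, 73.6 and 66.2 CPM in α-cells and 59.3 and 47.7 CPM in δ/PP-cells.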
